A study of Mus musculus with 6 samples.

Results

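The genes described here are 46 genes whose products build the mitotic spindle, attach chromosomes to it, control the steps of mitosis or divide the cell, together with their transcription factors Foxm1 and Mybl2. They were taken by gene symbol from a list of 46 names, and all 46 were among the 25628 symbols of the deposited count table. All 46 also passed the filter on low counts that left 14158 genes for testing. The cells were leukaemic erythroid blasts from the bone marrow, the TgSpi1 line #722. They carry a Spi1 transgene and a doxycycline-inducible shRNA against Spi1, which encodes the transcription factor SPI1 (PU.1). The doxycycline group (3 libraries) had received doxycycline for 48 h, so that the shRNA was induced. The untreated group (3 libraries) was the same line without doxycycline. Both groups were kept with EPO in exponential growth, and poly(A) RNA of each culture was sequenced. The cells were from 1 line, and no library with doxycycline and without the shRNA is analysed here, so that the effects of the drug and of the shRNA cannot be told apart.

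In mitosis, CDK1 bound to cyclin B drives entry, with the Aurora and Polo kinases setting up the spindle poles. Kinetochores, protein assemblies on centromeres, bind spindle microtubules, and the spindle checkpoint blocks the anaphase-promoting complex until every chromosome is attached. The central spindle then marks where the cell is cleaved, and abscission cuts the last bridge. Most of these genes are transcribed late in the cell cycle, under the MuvB complex with B-MYB (Mybl2) and then FOXM1, and in erythroid progenitors they are active while the cells still divide. In bulk RNA, fewer cells in a stage or of a type and less RNA per cell cannot be told apart.

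The 6 libraries held between 78926663 and 101276319 counts, and the 46 genes took 0.836%, 1.03% and 0.762% of them in doxycycline libraries 1, 2 and 3, against 0.844%, 1.02% and 0.914% in untreated libraries 1, 2 and 3. Levels are given in CPM, a gene's counts scaled to a common library size, with TMM factors (a trimmed mean of ratios between libraries) applied to the totals. Spi1, the target of the shRNA, had 84.8, 80.4 and 62.1 CPM with doxycycline, against 415, 353 and 329.6 CPM without it, a log2 fold change of -2.27 (SE 0.17, edgeR adjusted p = 0.00299). The erythroid markers were present, with summed levels of 4065 to 6024 CPM with doxycycline and 3459 to 4499 CPM without, and Gata1 averaged 268 ± 34.3 CPM with doxycycline and 274 ± 16.8 CPM without (SD, n = 3 each). The macrophage markers (4 of 7 matched) summed to 1.06 to 1.51 CPM with doxycycline and 2.88 to 3.2 CPM without, and the neutrophil granule markers (8 of 8) to 0.176 to 11.3 CPM with doxycycline and 0.328 to 43.3 CPM without. The neutrophil sums varied with the library number. With and without doxycycline they were 0.176 and 0.328 CPM in number 1, 11.3 and 43.3 CPM in number 2, and 9.61 and 9.95 CPM in number 3. The sums were 0.329 to 0.773 CPM with and 0.430 to 1.94 CPM without doxycycline for B cells (6 of 6), 0.231 to 0.914 and 0.253 to 0.510 CPM for T and NK cells (5 of 7), and 0.221 to 0.339 and 0.272 to 0.637 CPM for stroma (5 of 7). The part of such cells in the results was not tested.

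Libraries with the same number deviated from their group means together. Across all 14158 genes the deviations from the group means correlated between the doxycycline and the untreated library of the same number with r = 0.769, 0.742 and 0.723 for numbers 1, 2 and 3. Across the 46 genes r was 0.957, 0.984 and 0.0828, so that the libraries numbered 3 deviated together over the whole table but hardly over these genes, where doxycycline library 3 correlated at 0.713 with untreated library 1. Genes with the largest deviations weigh most in these r, namely Mki67, Cenpf, Cenpe, Knl1, Kif4 and Kif20b. In them the libraries numbered 2 lay 0.832 to 1.73 log2 units above the mean of the numbers. In a chi-square per gene, untreated library 3 was also nearer to untreated libraries 1 and 2 (242 and 193) than to doxycycline library 3 (264). Values with the number as a block are therefore given wherever they change a call. What a number marks (a day, a passage or a batch) is not in the labels.

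Most of the mitotic genes did not pass the test after 48 h of doxycycline. Racgap1, a subunit of the centralspindlin complex of the cleavage plane, fell in the fit without the block, and no gene of the 46 rose. A call here is a Benjamini-Hochberg adjusted p under 0.05 in edgeR's quasi-likelihood test over all 14158 genes. The same rule called 2.18% of all tested genes lower and 0.417% higher, 2.59% in all. At an unadjusted p under 0.05 edgeR counted 5 of the 46 genes, Racgap1 and Mybl2 lower and Plk4, Nek2 and Spc24 higher, and DESeq2 called Plk4 higher. The 5 genes were 10.9% of the 46, against 15.4% of all tested genes. The same 5 genes were those whose groups did not overlap, against 11.7% of all genes that lay wholly lower and 8.88% that lay wholly higher with doxycycline. The median log2 fold change of the 46 genes was -0.05, and that of all genes 0.01. In 27 genes the fold change was negative and in 19 positive.

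Once the replicate number entered the fit as a block, 4 genes rose (Cdc25b, Nek2, Plk4 and Spc24) and 8 fell (Cenpf, Incenp, Kif11, Kif20a, Kif20b, Mybl2, Racgap1 and Tpx2). This was 8.70% and 17.4% of the genes, beside 10.3% of all genes higher and 15.6% lower (25.8% in all), so the shares were near the background. Within pairs of the same number, 14 genes (30.4%) were lower in all 3 pairs, against 29.4% of all genes. DESeq2 with the block called 9 of the 12, all except Cenpf, Kif20a and Kif20b. Removing a smooth trend with length and GC of the transcript from each library, chosen after the data were examined, gave 11 genes higher (23.9%) and 6 lower (13.0%) with the block, against 19.4% and 13.5% of all genes. Of the 12, 10 were among them, all except Incenp and Kif20a, and Anln, Aurka, Aurkb, Birc5, Bub1b, Mad2l1 and Nuf2 were added as higher. The correction also moved all genes upward. Their median log2 fold change was 0.0722 with block and correction, against -0.00214 with the block alone. Leaving out both libraries numbered 1 left 2 calls with the block, Cdc25b higher and Racgap1 lower. Leaving out those numbered 2 gave 3 higher and 13 lower, with Cenpe, Kif23, Kif4, Knl1 and Mki67 among the lower ones and without Spc24, and those numbered 3 gave 4 higher and 8 lower. In these 3 fits 2.56%, 9.21% and 14.6% of all genes were higher and 6.11%, 14.9% and 18.8% lower. Each of the 3 fits rests on the pairs of the remaining numbers only, so a low p or a higher count there is weak evidence.

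**Figure D1:**
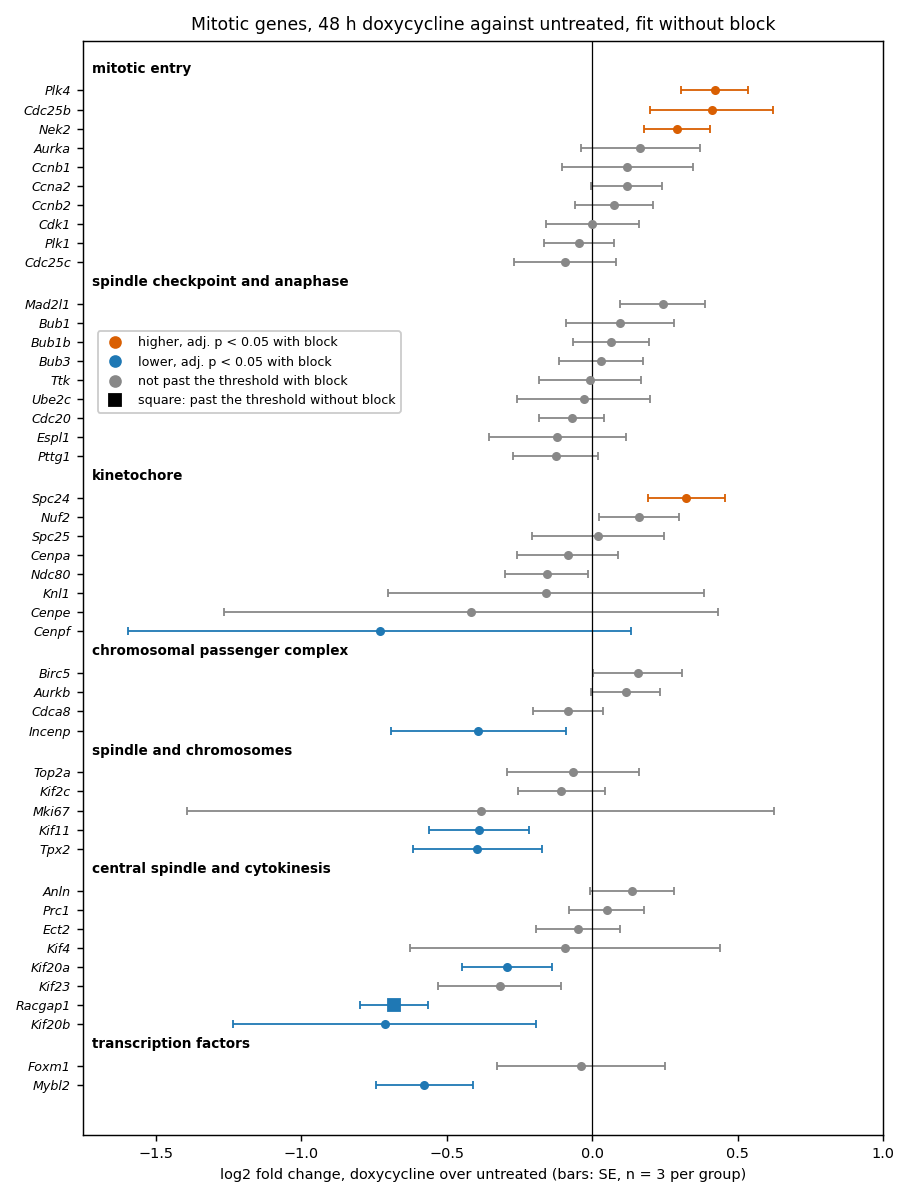
Log2 fold change of each of the 46 mitotic genes, doxycycline over untreated, in edgeR's fit without the block (points; bars are SE, n = 3 per group), grouped by role; orange and blue mark adjusted p under 0.05 with the block, the square the call without it. The long bars belong to Mki67, Cenpf, Cenpe, Knl1, Kif4 and Kif20b, and Racgap1 at -0.68 has a short one.

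Among the 8 genes of the central spindle and cytokinesis, 1 fell without the block, where 2.18% of all genes fell. With the block 3 fell (37.5%, against 15.6% of all genes), and none rose in either fit. The role groups are small and were chosen with earlier results of these data known, so their shares are not independent evidence. Racgap1 encodes MgcRacGAP, which with the kinesin KIF23 forms centralspindlin at the spindle midzone. It lies on the minus strand of chromosome 15 (GRCm38, chr15:99620496-99651656, GENCODE vM21). Racgap1 had 152, 141 and 159 CPM in doxycycline libraries 1, 2 and 3, against 248, 239 and 239 CPM in untreated libraries 1, 2 and 3. All 3 doxycycline libraries lay below all 3 untreated ones, and the values within each group were close together. The means were 151 ± 9.04 CPM with doxycycline and 242 ± 4.92 CPM without (SD, n = 3 each), a log2 fold change of -0.68 (SE 0.12, 95% interval -1.003 to -0.36, edgeR adjusted p = 0.0298). Within the pairs of numbers 1, 2 and 3 it was -0.70, -0.76 and -0.59, and the adjusted p with the block was 2.84e-04. Without the block the call was lost when any 1 of the 6 libraries was left out (adjusted p between 0.0720 and 0.156) and with upper-quartile factors, no low count filter, or length and GC correction (0.0506, 0.0588 and 0.0607); the DESeq2 adjusted p was 3.41e-04. A processed pseudogene matches 488 bases of its transcript at 98.2% identity, so reads there may be split.

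Kif23, the partner of Racgap1 in centralspindlin, had 51.5, 72.2 and 51.5 CPM with doxycycline, against 56.9, 75.6 and 85.9 CPM without it, and the groups overlapped. Its log2 ratio was -0.32 (SE 0.21, edgeR adjusted p = 0.571, and 0.0992 with the block). Ect2 encodes the RhoA exchange factor that centralspindlin recruits, and it had 170.1, 128 and 158 CPM with doxycycline, against 160.1, 149 and 162 CPM without it. Its log2 fold change was -0.05 (SE 0.14), and that of Prc1, which bundles the antiparallel microtubules of the midzone, was 0.05 (SE 0.13). Anln, the anillin scaffold of the contractile ring, was at 0.14 (SE 0.15). The 95% interval of the difference ran from -0.45 to 0.35 for Ect2 and from -0.31 to 0.41 for Prc1.

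Both KIF20 kinesins of the list fell with the block. Kif20a (MKLP2) had 129, 169 and 139 CPM with doxycycline, against 157, 187 and 192 CPM without it, and with the block its log2 ratio was -0.30 (SE 0.09, edgeR adjusted p = 0.0379). Each doxycycline library was below the untreated one of its number, though the groups overlapped. The call was lost with length and GC correction added (0.101), without both libraries numbered 1 or 3 (0.228 and 0.0771) and in DESeq2 with the block (0.0524). It shares 29.3% of its exon bases with Cdc23 on the opposite strand, and the library kit does not mark strand. Kif20b had 125, 372 and 120.3 CPM with doxycycline, against 178, 472 and 363 CPM without it, so that both libraries numbered 2 and untreated library 3 were high. With the block its log2 ratio was -0.81 (SE 0.20, edgeR adjusted p = 0.0134, DESeq2 adjusted p = 0.253). Kif4, a chromokinesin that works with PRC1, had 73.5, 192 and 49.2 CPM with doxycycline, against 84.8, 174 and 77.5 CPM without it, with a fold change of -0.09 whose SE was 0.53.

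The promoters of Racgap1, Plk4 and Mybl2 are shown, which ranked 1, 2 and 3 by edgeR adjusted p without the block and had non-overlapping groups. Nek2 and Spc24 also had non-overlapping groups but are not shown. The promoter of Cdc20 is shown because its level differed least between libraries. The windows run from 250 bases before to 50 after the RefSeq start (GRCm38.p6), 5′ to 3′ on the gene's strand, and capitals mark TTTGAA (the cell cycle homology region, CHR, bound by MuvB) and CCAAT (bound by NF-Y) or their reverse complements. They lie at chr15:99651607-99651906 on the minus strand for Racgap1, chr2:163054385-163054684 on the plus strand for Mybl2, chr3:40799701-40800000 on the plus strand for Plk4 and chr4:118437294-118437593 on the minus strand for Cdc20.
Racgap1: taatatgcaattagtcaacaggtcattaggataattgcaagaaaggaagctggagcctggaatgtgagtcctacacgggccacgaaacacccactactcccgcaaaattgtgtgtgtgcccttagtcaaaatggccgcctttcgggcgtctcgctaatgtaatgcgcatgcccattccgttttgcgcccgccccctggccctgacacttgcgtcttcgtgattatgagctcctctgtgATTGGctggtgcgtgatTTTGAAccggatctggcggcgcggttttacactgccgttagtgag
Mybl2: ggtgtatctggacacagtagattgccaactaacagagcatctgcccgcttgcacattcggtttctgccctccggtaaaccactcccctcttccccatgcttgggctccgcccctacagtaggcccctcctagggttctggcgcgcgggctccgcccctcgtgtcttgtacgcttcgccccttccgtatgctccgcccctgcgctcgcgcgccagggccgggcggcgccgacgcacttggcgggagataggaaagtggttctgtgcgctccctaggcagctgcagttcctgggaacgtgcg
Plk4: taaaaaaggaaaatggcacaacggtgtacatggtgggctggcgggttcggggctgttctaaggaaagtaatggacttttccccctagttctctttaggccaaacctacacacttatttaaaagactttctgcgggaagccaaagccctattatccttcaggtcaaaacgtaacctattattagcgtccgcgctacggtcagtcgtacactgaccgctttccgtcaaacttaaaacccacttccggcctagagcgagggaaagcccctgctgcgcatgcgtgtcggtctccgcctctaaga
Cdc20: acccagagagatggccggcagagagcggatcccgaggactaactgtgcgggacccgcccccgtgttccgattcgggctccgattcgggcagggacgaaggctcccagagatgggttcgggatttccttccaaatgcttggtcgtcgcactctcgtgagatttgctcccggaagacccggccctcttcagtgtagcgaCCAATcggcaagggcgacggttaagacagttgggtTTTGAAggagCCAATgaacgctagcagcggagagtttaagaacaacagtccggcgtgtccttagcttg
Racgap1 had TTTGAA with its first base at +6 and a reverse CCAAT at -12, counted from the start. Cdc20 had TTTGAA at -18 and CCAAT at -53 and -8. Neither motif was in the windows of Mybl2 and Plk4, which says only that these letters are not there.

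RefSeq promoter windows were found for 38 of the 46 genes, 41 windows in all. TTTGAA was in 73.2% of these windows, on either strand and with overlaps counted, against 17.9% of all 32851 windows. CCAAT was in 73.2% of them, against 37.4% of all, and both motifs were in 61.0%, against 6.95% of all. GAGGAA, letters common in SPI1 sites, was in 26.8% of them and in 28.3% of all windows. Of the genes called with the block, Racgap1, Cenpf and Kif11 had both motifs, Cdc25b and Nek2 had only CCAAT, Kif20b had only TTTGAA, and Plk4 and Mybl2 had neither. No window was matched for Incenp, Kif20a, Spc24 and Tpx2.

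The 10 genes of mitotic entry included 3 that rose with the block (30.0%, against 10.3% of all genes) and none that fell (against 15.6%). Their median log2 fold change was 0.12. Plk4, the kinase that starts centriole duplication, had 174, 161 and 158 CPM with doxycycline, against 119.9, 125 and 123 CPM without it. All doxycycline libraries were above all untreated ones, at means of 164 ± 8.42 CPM with doxycycline and 123 ± 2.72 CPM without (SD, n = 3 each). Its log2 ratio was 0.42 (SE 0.12, edgeR adjusted p = 0.125), the lowest p of the genes not called, against 0.00539 with the block and 0.0238 in DESeq2 without it. With length and GC correction and no block it was 0.0491. Nek2, a kinase that separates the centrosomes, had 198, 196 and 209 CPM with doxycycline, against 157, 171 and 165 CPM without it, again without overlap (log2 fold change 0.29, SE 0.11, edgeR adjusted p = 0.282, and 0.0294 with the block). Cdc25b, a phosphatase that activates CDK1, had 114, 152 and 103 CPM with doxycycline, against 96.5, 109 and 72.6 CPM without it. The groups overlapped, but each doxycycline library was above its untreated pair (block log2 fold change 0.41, SE 0.09, edgeR adjusted p = 0.00825).

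The kinase and cyclins of entry did not pass in either fit. Cdk1 had 282, 214 and 239.5 CPM with doxycycline, against 284, 224 and 227 CPM without it, a log2 fold change of 0.00 with a 95% interval of -0.44 to 0.45. Ccna2, cyclin A2, had 645, 540.3 and 619 CPM with doxycycline, against 542, 557 and 563 CPM without it (log2 fold change 0.12, SE 0.12). Ccnb1, cyclin B1, had 277, 203 and 351 CPM with doxycycline, against 234, 223 and 307 CPM without it, and number 3 was the highest in both groups. The log2 fold changes of the B-type cyclins were 0.12 (SE 0.23) in Ccnb1 and 0.08 (SE 0.13) in Ccnb2. Ccnb1 has 4 processed pseudogenes that match over 94.4% to 99.2% of the aligned bases, so its counts are uncertain. Plk1, the kinase of pole maturation and chromosome separation, had 154, 152 and 168 CPM with doxycycline, against 166, 153 and 171 CPM without it, a span of 1.12-fold over the 6 libraries. Aurka, the centrosomal Aurora kinase, was at 0.17 (SE 0.21) and Cdc25c, the later CDK1 phosphatase, at -0.09 (SE 0.18).

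None of the 9 genes of the spindle checkpoint and anaphase passed with or without the block, in edgeR or in DESeq2, and 0 had an unadjusted p under 0.05 in edgeR without the block. Of all genes, edgeR called 25.8% with the block, and 15.4% had such an unadjusted p. With length and GC correction added to the block, Bub1b and Mad2l1 rose (edgeR adjusted p = 0.0472 and 0.0240). The median log2 fold change of all genes was then also higher, at 0.0722 against -0.00214 with the block alone. Without the block, the median log2 fold change of the 9 genes was -0.01. Cdc20, which activates the anaphase-promoting complex once the checkpoint is satisfied, had 271, 272 and 293 CPM with doxycycline, against 301, 282 and 295 CPM without it. The groups overlapped and the highest library was 1.11-fold above the lowest, the smallest span of the 46 genes. Its log2 fold change was -0.07 (SE 0.11, 95% interval -0.38 to 0.24). Bub1b (BUBR1), which binds and inhibits that complex, had 317, 354 and 287 CPM with doxycycline, against 300.2, 326 and 289.6 CPM without it, also with overlap. The checkpoint genes Bub1, Bub1b, Bub3, Mad2l1 and Ttk had log2 fold changes of 0.09, 0.06, 0.03, 0.24 and -0.01. Mad2l1, which holds CDC20 inactive, was the highest of them, with 263, 195 and 228 CPM with doxycycline, against 207, 185 and 188 CPM without it (SE 0.15, edgeR adjusted p = 0.519, and 0.0822 with the block).

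Ube2c, the ubiquitin-conjugating enzyme of that complex, had 449, 360.4 and 282 CPM with doxycycline, against 469, 352 and 294 CPM without it. The doxycycline and untreated libraries of the same number were close, and 22.8% of its exon bases overlap Tnnc2 on the opposite strand. Pttg1, securin, had 62.7, 55.1 and 59.5 CPM with doxycycline, against 73.2, 57.9 and 62.3 CPM without it, and its target Espl1, separase, had 98.3, 170.0 and 120.3 CPM with doxycycline, against 113, 164 and 146 CPM without it. Their log2 fold changes were -0.13 (SE 0.15) and -0.12 (SE 0.23), and both had overlapping groups.

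The 8 kinetochore genes held 1 that rose and 1 that fell with the block (12.5% each, against 10.3% and 15.6% of all genes). Spc24, a subunit of the NDC80 complex that couples kinetochores to microtubules, had 103, 95.8 and 102 CPM with doxycycline, against 84, 70.8 and 85.7 CPM without it. No doxycycline library was as low as an untreated one (log2 fold change 0.32, SE 0.13, edgeR adjusted p = 0.309, and 0.0201 with the block). Nuf2, a further subunit, had 202, 159.9 and 171 CPM with doxycycline, against 165, 148 and 164 CPM without it. Neither it nor the remaining subunits passed with or without the block, with log2 fold changes of -0.16 (SE 0.14) in Ndc80, 0.16 (SE 0.14) in Nuf2 (with block and correction 0.23, edgeR adjusted p = 0.0301) and 0.02 (SE 0.23) in Spc25. With block and correction the median of all genes was 0.0722. Cenpa, the histone H3 variant that marks centromeres, had 278, 221 and 299.8 CPM with doxycycline, against 325, 236 and 286 CPM without it (log2 fold change -0.08, SE 0.17).

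The large kinetochore proteins were spread far more widely. Cenpf, a protein of the outer kinetochore, had 13.9, 112 and 20.6 CPM with doxycycline, against 25.8, 137 and 80.4 CPM without it, and both libraries numbered 2 were high in both groups. Without the block its log2 ratio was -0.73 (SE 0.86, edgeR adjusted p = 0.786); with the block it was -1.04 (SE 0.24, edgeR adjusted p = 0.0111), and the DESeq2 adjusted p with the block was 0.0907. Its differences within the numbers were -0.89, -0.29 and -1.96. Cenpe, a kinetochore kinesin, had 29.3, 198 and 29.5 CPM with doxycycline, against 38.5, 187 and 117 CPM without it. Knl1, the kinetochore scaffold that carries the BUB proteins, had 89.8, 246 and 62.4 CPM with doxycycline, against 90.5, 227 and 127 CPM without it. In Cenpe and Knl1 number 2 was the highest in both groups and untreated library 3 stood above doxycycline library 3 (block adjusted p = 0.0969 and 0.256).

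Of the 4 genes of the chromosomal passenger complex, which corrects faulty attachments and later acts at the midzone, 1 fell with the block. Incenp, its scaffold, had 93.7, 185 and 103 CPM with doxycycline, against 121, 198 and 181 CPM without it (block log2 fold change -0.43, SE 0.13, edgeR adjusted p = 0.0304), and the groups overlapped. With length and GC correction added the adjusted p was 0.128. Aurkb, the kinase of the complex, had 127, 126 and 123 CPM with doxycycline, against 124, 114 and 109.5 CPM without it (log2 fold change 0.12, SE 0.12). Cdca8 had 193, 227 and 210.1 CPM with doxycycline, against 217, 226 and 224 CPM without it, with overlapping groups. Birc5 (survivin) and Cdca8 (borealin), which target it to centromeres, were at 0.16 (SE 0.15) and -0.08 (SE 0.12).

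All 5 genes of the spindle and chromosomes had negative fold changes, with a median of -0.38, and 2 of them fell with the block (40.0%, against 15.6% of all genes). Tpx2, which activates Aurora A on the spindle, had 211, 288 and 165 CPM with doxycycline, against 269.7, 341 and 261 CPM without it (block log2 fold change -0.42, SE 0.10, edgeR adjusted p = 0.0118). Kif11 (Eg5), the motor that pushes the poles apart, had 315, 385 and 274 CPM with doxycycline, against 369.6, 487 and 419 CPM without it (block log2 fold change -0.39, SE 0.10, edgeR adjusted p = 0.0152). In both genes each doxycycline library was below its untreated pair while the groups overlapped. Top2a, the topoisomerase that untangles sister chromatids, had 872, 1251 and 744 CPM with doxycycline, against 835, 1202 and 967 CPM without it, and Kif2c (MCAK), which depolymerises microtubules, had 98, 111 and 83.4 CPM with doxycycline, against 101, 113 and 100.2 CPM without it. Neither passed, at log2 fold changes of -0.07 (SE 0.23) and -0.11 (SE 0.15).

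Mki67, which coats mitotic chromosomes and is used as a proliferation marker, had 85.1, 877 and 86.6 CPM with doxycycline, against 129, 826 and 414 CPM without it. Number 2 was high in both groups, and the doxycycline values of numbers 1 and 3 were the lowest. The log2 fold change was -0.38 with an SE of 1.01 and a 95% interval of -3.19 to 2.42, and in that fit changes of several fold in either direction were not detectable. With the block it was -0.90 (SE 0.34, edgeR adjusted p = 0.0754), the nearest to the threshold among the genes not called. Block fits without number 1, 2 or 3 gave -1.07, -1.42 and -0.25 (edgeR adjusted p = 0.233, 1.56e-10 and 0.0405). The fit without number 2 held only the pairs numbered 1 and 3, whose differences were -0.60 and -2.26. Its low adjusted p therefore does not show that the pairs were alike. Its differences within numbers 1, 2 and 3 were -0.60, 0.09 and -2.26, in which the pair numbered 2 had the other sign.

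Of the transcription factors, Mybl2 fell with the block. It had 76.3, 101 and 70.4 CPM with doxycycline, against 116, 129 and 124 CPM without it, with no overlap between the groups and means of 82.6 ± 16.3 CPM with doxycycline and 123 ± 6.66 CPM without (SD, n = 3 each). Its log2 ratio was -0.58 (SE 0.17, edgeR adjusted p = 0.147) without the block and -0.59 (SE 0.10, edgeR adjusted p = 0.00208) with it. A processed pseudogene matches 742 bases of its transcript at 99.7% identity. Foxm1 had 38.4, 68.3 and 35.1 CPM with doxycycline, against 39.7, 60.1 and 45.8 CPM without it, a log2 fold change of -0.04 (SE 0.29), and the groups overlapped.

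A further 164 mitotic genes were listed by role, of which 163 were matched and 162 tested. Without the block 1 of them fell, Cep55, and none rose; 9 had an unadjusted p under 0.05 in edgeR (5.56%, against 15.4% of all genes), 5 of them lower, and DESeq2 called 4 lower and 0 higher. Cep55, which recruits the abscission machinery to the midbody (GRCm38, chr19:38055011-38074423, plus strand), had 13.1, 13.3 and 7.33 CPM in doxycycline libraries 1, 2 and 3, against 39.2, 39.7 and 31.2 CPM in untreated libraries 1, 2 and 3. The groups were far apart, at 11.2 ± 3.39 CPM with doxycycline and 36.7 ± 4.76 CPM without (SD, n = 3 each; log2 fold change -1.71, SE 0.26, edgeR adjusted p = 0.0233, and 1.03e-05 with the block). Leaving out library 1 or 2 of either group ended the call without the block, with an adjusted p of up to 0.0937. In the block fit 16 rose (9.88%) and 20 fell (12.3%), near the 10.3% and 15.6% of all genes. Of the 22 tested genes of the other cytokinesis list, 9 fell (40.9%, against 15.6% of all genes) and 1 rose (4.55%). The list was chosen with earlier results of these data known, so this share is not independent evidence. The block fit without the libraries numbered 1 left 4 lower calls among all 162 tested other genes (2.47%, against 6.11% of all genes). At most 4 of the 9 therefore remained in that fit. Arhgef2, a RhoA exchange factor held on microtubules, had 84.1, 109.5 and 68.7 CPM with doxycycline, against 159, 197 and 148 CPM without it (block log2 fold change -0.96, SE 0.09, edgeR adjusted p = 4.55e-05). The other 8 fallers were Cep55, Sept9, Vps4a, Myh9, Iqgap3, Depdc1b, Kif3b and Chmp4b, of which those after Cep55 are named with their values seen. Vps4a is an ESCRT enzyme of abscission, and Myh9 is a non-muscle myosin that also works in cells that do not divide.

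**Figure D2:**
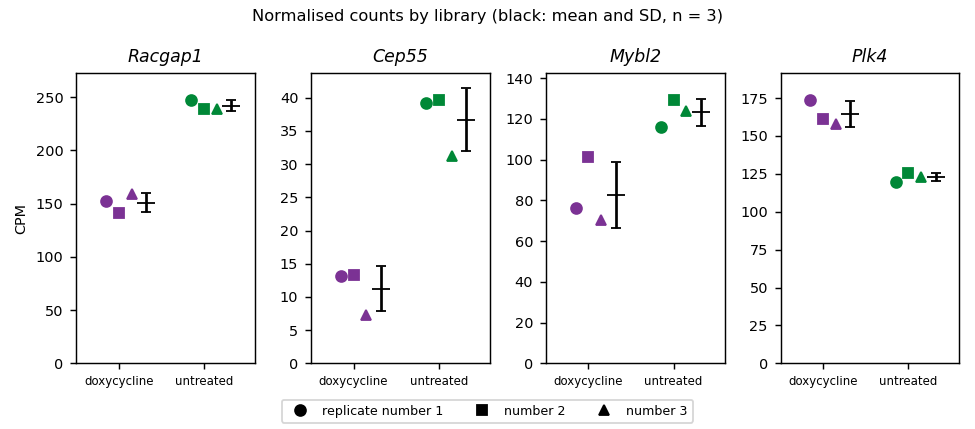
Level in CPM (linear axes from 0) of Racgap1, Cep55, Mybl2 and Plk4 in each doxycycline (left) and untreated (right) library, with the replicate number as the symbol and the mean and SD in black (n = 3). The groups do not overlap in any of the 4 panels: Racgap1, Cep55 and Mybl2 lie lower and Plk4 higher with doxycycline.

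Of the 30 other kinetochore and centromere genes, 10 rose with the block (33.3%, against 10.3% of all genes). This list, too, was chosen with earlier results of these data known. Cenpn, which reads the CENP-A nucleosome, had 58.7, 59.6 and 60.9 CPM with doxycycline, against 46.8, 47.3 and 45.8 CPM without it (block log2 fold change 0.36, SE 0.09, edgeR adjusted p = 0.0151). Among 19 other checkpoint genes 2 rose and 2 fell, led by Cdc27 (0.34, edgeR adjusted p = 0.018), a subunit of the anaphase-promoting complex, and Mad1l1 (-0.40, 0.0195), which carries MAD2 to kinetochores. Of 13 other entry genes 1 fell, the phosphatase inhibitor Arpp19 (-0.31, 0.0218). Of 43 other spindle genes 1 rose and 5 fell, led by Fam83d (-0.89, 0.00318), a spindle protein, and the kinesin Kif13a (-1.97, 0.00662). Kif13a lay near the lowest value of the table, at 0.011, 0.0719 and 0.0903 CPM with doxycycline, against 0.147, 0.268 and 0.263 CPM without it, so the size of its fold change is uncertain. Of 21 condensin and cohesin genes 1 fell, Smc3 (-0.52, 0.0121), and of 14 DREAM and MuvB factors 2 rose and 1 fell, led by E2f5 (-0.54, 0.00793) and Lin9 (0.34, 0.0169). Values in these parentheses are log2 fold changes with the block and their edgeR adjusted p. In the order given, the lists from checkpoint to DREAM and MuvB had 10.5%, 0%, 2.33%, 0% and 14.3% of their genes higher with the block. They had 10.5%, 7.69%, 11.6%, 4.76% and 7.14% lower, against 10.3% of all genes higher and 15.6% lower. With length and GC correction added, 46 of the other mitotic genes rose (28.4%, against 19.4% of all genes in that fit) and 15 fell (9.26%, against 13.5%). With the block and without the libraries numbered 1, 0 rose and 4 fell, so that none of the 10 kinetochore calls remained, against 2.56% of all genes higher and 6.11% lower.

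The widest spreads between libraries were in long genes, though not every long gene was spread widely. Among the 43 genes averaging at least 50 CPM, 6 had a highest library more than 3.5-fold above the lowest (14%), against 2.73% of the 4684 tested genes at such levels. They were Mki67 (10.3-fold), Cenpf (9.85-fold), Cenpe (6.75-fold), Knl1 (3.93-fold), Kif20b (3.93-fold) and Kif4 (3.91-fold). The other genes over 5 kb were Mad2l1 (1.42-fold), Top2a (1.68-fold) and Espl1 (1.73-fold). At a cut of 2-fold the shares were close, with 9 of the 43 genes above it (20.9%), against 17.6% of the 4684. The median span was 1.47-fold in the 43 genes and 1.53-fold in the 4684. Across the 46 genes, Spearman's rho of transcript length against span was 0.558, a correlation across genes that share the same 6 libraries; across 14006 tested genes with a length it was -0.0414.

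**Figure D3:**
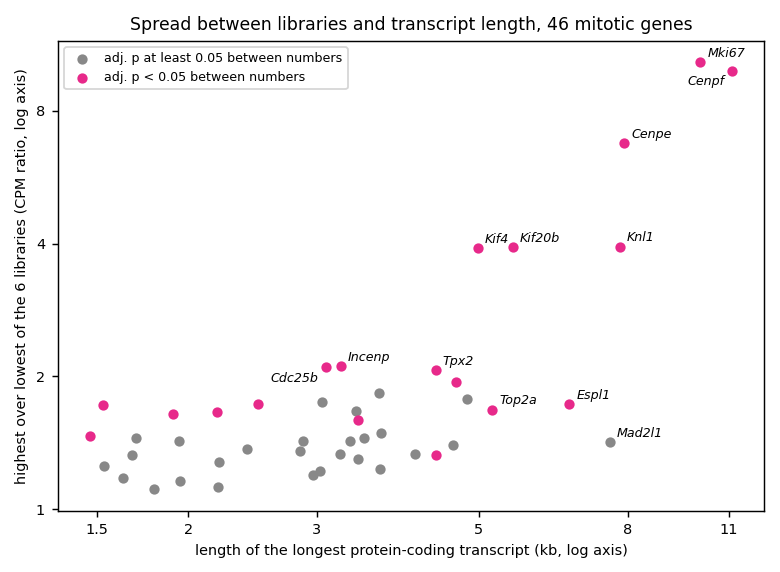
Highest over lowest CPM among the 6 libraries (log axis) against the length of the longest protein-coding transcript in kb (log axis) for the 46 mitotic genes; pink marks genes that differed between replicate numbers. The 6 genes above 3.5-fold are 4.98 kb or longer.

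Of the 46 genes, 19 differed between the replicate numbers in edgeR's test (41.3%), against 43.3% of all genes. Of the 8 genes with transcripts over 5 kb, 7 differed (87.5%, all except Mad2l1). The shares were 65.8% in all tested genes of that length and 72.2% in the other mitotic genes of that length. Between 2 and 5 kb, 32.1% of the members differed, against 42.0% of all genes of that length. Under 2 kb it was 30.0%, against 35.9%. In 7 of the 8 genes over 5 kb, both libraries numbered 2 were above the other 4, against 41.2% of all genes over 5 kb and 15.2% of all genes. This share was 34.8% over the 46 genes and 57.1% in the condensin and cohesin list. The median log2 fold changes of the 8 genes over 5 kb within numbers 1, 2 and 3 were -0.295, 0.07 and -1.31. Those of the 28 genes between 2 and 5 kb were -0.00095, -0.02 and -0.08, and those of the 10 genes under 2 kb -0.03, 0.03 and 0.03. Over all genes longer than 5 kb the medians were -0.06, -0.0015 and -0.24. The pair numbered 3 had the median farthest from 0 in both sets of long genes.

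**Figure D4:**
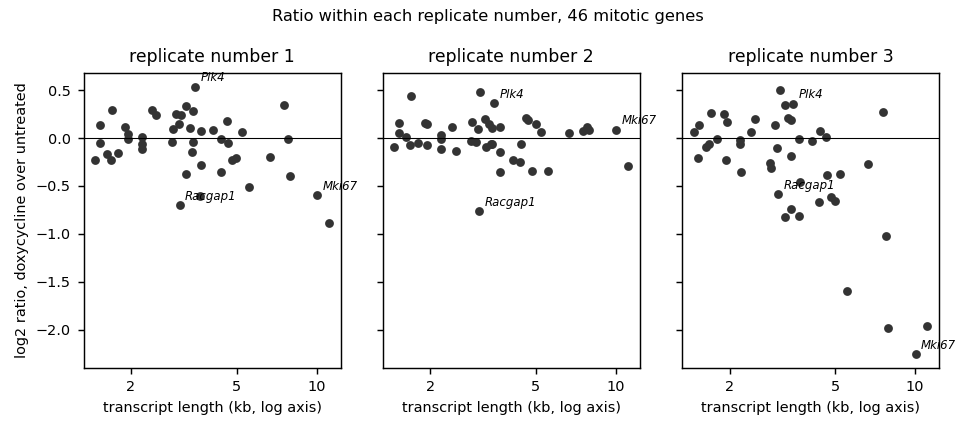
Log2 ratio, doxycycline over untreated, of each of the 46 mitotic genes (points) within each pair of libraries of the same number, against transcript length in kb (log axis). The genes over 5 kb have a median of -1.31 in the pair numbered 3, where Mki67 is lowest, and of 0.07 in the pair numbered 2.

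**Figure D5:**
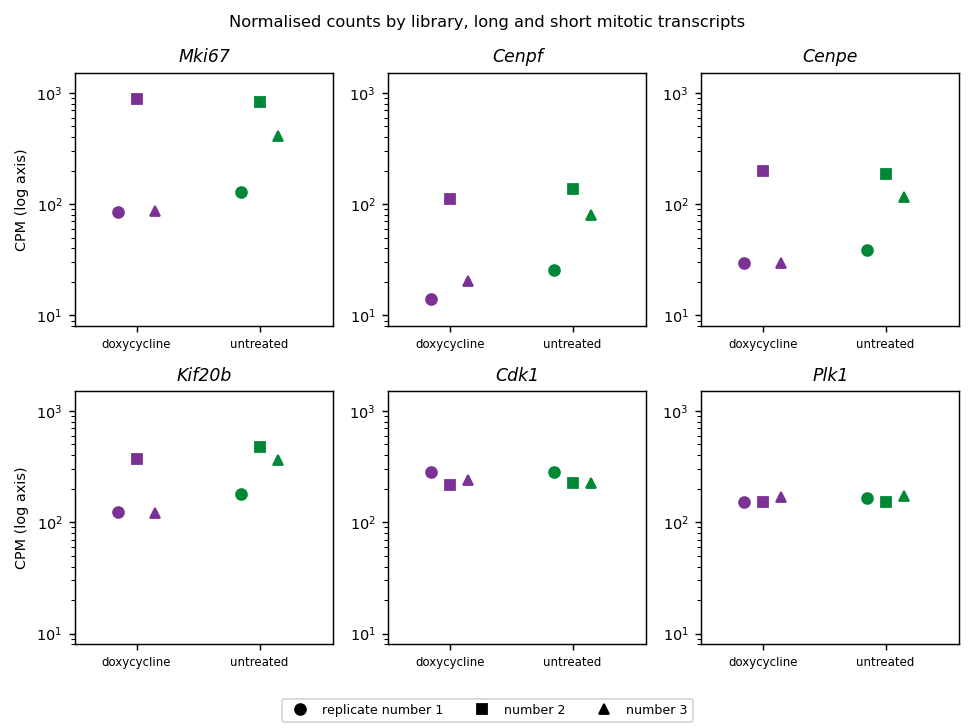
Level in CPM (log axes) of 4 long transcripts, Mki67, Cenpf, Cenpe and Kif20b, and of Cdk1 and Plk1, in each doxycycline (left) and untreated (right) library, with the replicate number as the symbol. In the long transcripts number 2 stands highest in both groups and untreated library 3 lies above doxycycline library 3, while Plk1 spans 1.12-fold over the 6 libraries.

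Per kb of transcript, the levels averaged over the 6 libraries were highest in Ccna2 (195 CPM per kb), Top2a (187), Cenpa (187), Ube2c (168) and Cdc20 (159). Racgap1 was at 64.4 CPM per kb and its partner Kif23 at 19.3. The lowest were Cenpf (5.84 CPM per kb), Foxm1 (10.3), Cenpe (12.6) and Ttk (15). Neighbours in this order overlap in their library values, which ran from 1.25 to 12.3 CPM per kb in Cenpf, 7.54 to 14.7 in Foxm1, 3.71 to 25.04 in Cenpe and 12.5 to 17.9 in Ttk. Neighbours among the 5 highest overlapped too. All 46 genes were detected in every library. Over the whole list, 36 genes had a 95% interval of the log2 fold change within 1 in either direction, and 10 reached beyond it. Kif4, Prc1, Ccna2 and Cdc25c share 11.1% to 15.1% of their exon bases with a gene on the opposite strand, and Bub3, Cdc20, Kif2c, Plk1 and Ube2c have copies elsewhere in the annotation at 91.2% to 93.8% identity, so that their counts may hold reads of other genes.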

How the data were processed

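Poly(A) RNA of 6 cultures, 3 with and 3 without doxycycline, was prepared with the TruSeq RNA v2 kit, per the labels' protocols, which does not mark strand. The authors deposited 1 table of raw counts per gene symbol, and its columns were matched to samples by name. The smallest value was 1 and no 0 occurred. Per the submitters' processing notes, the tools were STAR, DESeq2 and bcl2fastq 2.17.1.14 and the builds mm10 and GRCm38, with no roles stated. Which counter and annotation were used is not given in the sources.

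edgeR 4.0.16 (limma 3.58.1, R 4.3.3) was run on the counts with TMM factors, the filterByExpr filter and group as the only term. Its two-sided quasi-likelihood test was adjusted by Benjamini-Hochberg over 14158 genes. SE is the fold change over the square root of F, and 95% intervals use 4 residual degrees of freedom. The p-values of the test rest on more degrees of freedom, so the intervals are wider than these imply. For Nek2 the interval ran from -0.026 to 0.61 although edgeR's unadjusted p was 0.0366. An alternative fit, with a block for the replicate number, had 2 residual degrees of freedom. The block fits that left out a number had fewer. The numbers were taken to pair the libraries because same-numbered ones deviated together (r = 0.769, 0.742 and 0.723), and the common biological coefficient of variation was 11.3% with the block and 28.6% without. The labels call the cultures biological replicates, and all pairs of libraries differed beyond sampling noise. DESeq2 1.42.0, other scaling factors, filters and left-out libraries were further alternatives. The length and GC correction and the block fits without a number were added after seeing the data. Lengths (longest protein-coding transcript), positions and copies came from GENCODE vM21 and minimap2 2.31-r1302, and promoters from RefSeq (GRCm38.p6). The fits were run on simulated counts that held no effect of the replicate number. Their variation between libraries was also set below the 28.6% of the fit without the block. That run therefore tests neither the block nor the fits at the spread of these data. The members and lists were chosen with earlier results of these data known. Members all had to be described. Of the other lists, genes past the threshold without the block, and up to 2 called genes per list with the lowest p in the block fit, were named, and so was Spi1; the 2 most abundant members of each role group, and all members called in either fit, were given in full. 1 gene that this rule names is not reported here.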

Additional observations from a re-analysis of the deposited data

How the results depend on the processing

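Without the block, the count of members that rose (0) was 1 with DESeq2 and 1 with length and GC correction. The count that fell (1) was 0 with upper-quartile factors, 0 without the low count filter and 0 with length and GC correction. With the replicate block 4 rose and 8 fell, with DESeq2 and the block 4 and 5, and with the block and correction 11 and 6. Block fits without both libraries of number 1, 2 or 3 gave 1, 3 and 4 higher and 1, 13 and 8 lower. Leaving out single libraries without the block gave 0 higher and 0 lower in each of the 6 fits.

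Of the other mitotic genes, 16 rose and 20 fell with the block, 17 and 18 with DESeq2 and the block, and 46 and 15 with block and correction. DESeq2 without the block gave 4 lower and the correction 3 lower. Block fits without number 1, 2 or 3 gave 0, 9 and 23 higher and 4, 26 and 21 lower, and left-out single libraries gave 0 higher and 0 to 1 lower.

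Over all genes 59 rose and 308 fell. The counts were 291 and 722 with DESeq2, 31 and 151 with a mean of at least 5 CPM, 1452 and 2206 with the block, 1436 and 1966 with DESeq2 and the block, and 2748 and 1914 with block and correction. The correction alone gave 126 higher. Block fits without number 1, 2 or 3 gave 368, 1310 and 2071 higher and 880, 2119 and 2677 lower, and left-out single libraries 0 to 26 higher and 35 to 242 lower. Lower genes were 83.9% of the calls, against 71.3% with DESeq2, 60.3% with the block, 57.8% with DESeq2 and the block, 73.5% with the correction and 41.1% with block and correction.

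The median log2 fold change of the members (-0.05) was 0.0498 with the correction and 0.0481 with block and correction, and -0.0707 to 0.0482 with single libraries left out, the highest without doxycycline library 3. The correction moved the median of all genes by 0.096. The cause of each of these shifts was not tested. Spi1 stayed between -2.36 and -2.14 with libraries left out. Of 874 recomputed values of single members, 720 kept their sign and side of the threshold, 64 passed newly with the same sign, 9 no longer passed, and 81 took the other sign without being called in either fit. The members averaged at least 35.2 CPM, while Kif13a of the other lists lay near the lowest value of the table. There were 3 cultures per group, and what limits the comparisons was not tested.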
